A study of Mus musculus with 288 samples.

Results

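Maintenance and removal of DNA methylation were followed at the transcript level through 6 genes, namely Dnmt1, Uhrf1, Tet1, Tet2, Tet3 and Tdg, which are 6 of the 54232 rows of a table of read counts per gene in single mouse embryonic stem cells. The rows were taken by name, as the enzymes and cofactor of both processes, with earlier results of these data known. They were measured in 233 cells that had more than 200000 reads on genes, more than 2000 detected genes and a mitochondrial fraction under 0.15.

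Dnmt1 is the DNA methyltransferase that copies methylation onto the new strand after replication, and Uhrf1 is the protein that recognises hemimethylated CpG sites and brings Dnmt1 to them. Tet1, Tet2 and Tet3 are dioxygenases that oxidise methylcytosine stepwise, and Tdg is the glycosylase that excises the most oxidised forms so that base excision repair can restore an unmethylated cytosine. In embryonic stem cells held in 2i, DNA methylation is low across the genome, and it is gained again once the inhibitors are removed.

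The cells carry the labels E14 and strain 129/Ola. They were grown in 2i+LIF, a serum-free medium with the GSK3 inhibitor CHIR99021, the MEK inhibitor PD0325901 and leukaemia inhibitory factor, then moved to medium with fetal bovine serum and LIF. Single cells were sorted 0 h (D0), 24 h (D1) or 48 h (D2) after this release, 96 wells per label, and processed by scNMT-seq, in which RNA and DNA of the same cell are separated. The passing cells numbered 90 in D0, 50 in D1 and 93 in D2. As far as the labels show, each label is 1 culture sorted into 1 plate, so that time, culture and plate coincide. The cells of a label are therefore not replicates of its condition, and labels are compared by values with no p.

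Library features that touch these genes differed between the plates. The depth of passing cells ran from 202157 to 43336922 reads, with D1 the deepest plate, and the median number of detected genes at an equal depth of 200000 reads was 7793.5, 8035 and 3945. Hprt, which encodes a purine salvage enzyme that some E14 derivatives lack, had a read in 9 of 90 D0 cells, 48 of 50 D1 cells and 7 of 93 D2 cells, and 4 Y-linked genes summed to a mean of 22.9, 269 and 5.21 CPM. CPM is the number of reads of a gene scaled by the total reads of its cell, and all means over cells give each cell equal weight. The D1 plate therefore stood apart from both others in these genes, and their part in the D1 values below was not tested. A different line or subline on the D1 plate and the time point cannot be told apart in any comparison with D1. Pluripotency markers were present throughout, with 6 genes including Pou5f1 summing to a median of 2537, 1829 and 3749 CPM from D0 to D2, while the medians of 5 primitive endoderm and 5 fibroblast markers were 0 in every label. The 5 trophectoderm markers summed to a median of 34.4, 5.80 and 0 CPM and a mean of 80.2, 48.6 and 115 CPM, with a highest cell of 8781 CPM in D2, and Elf5 had no read in D1 and D2. Krt8, a keratin of simple epithelia in this list, had reads in 77.8%, 42% and 21.5% of cells. Krt18, the other keratin of the list, had reads in 20%, 54% and 17.2% of cells, with D1 the highest. The part of these markers in the members' values was not tested.

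Promoter sequences are shown first because CpG dinucleotides are the sites on which these enzymes act, and they are given for both maintenance genes and for Tet1 and Tet2, the TET genes with reads in most cells of every label. RefSeq windows on GRCm38.p6, from 250 bases before to 50 bases after an annotated start, were matched for all 6 members, with 9 windows in total. For each member the window richest in CpG is the one described, and CpG sites are in capitals, read 5′ to 3′ on the gene's strand. The Dnmt1 window is chr9:20952574-20952873, the Tet1 window chr10:62887275-62887574 and the Tet2 window chr3:133544341-133544640, all on the minus strand, and the Uhrf1 window is chr17:56304063-56304362 on the plus strand.
Dnmt1: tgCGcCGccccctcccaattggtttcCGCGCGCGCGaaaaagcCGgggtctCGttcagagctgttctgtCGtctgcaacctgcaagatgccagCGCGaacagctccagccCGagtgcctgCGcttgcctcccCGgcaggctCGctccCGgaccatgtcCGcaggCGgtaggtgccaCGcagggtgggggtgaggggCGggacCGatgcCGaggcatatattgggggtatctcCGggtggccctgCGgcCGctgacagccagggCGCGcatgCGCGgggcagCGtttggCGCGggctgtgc
Uhrf1: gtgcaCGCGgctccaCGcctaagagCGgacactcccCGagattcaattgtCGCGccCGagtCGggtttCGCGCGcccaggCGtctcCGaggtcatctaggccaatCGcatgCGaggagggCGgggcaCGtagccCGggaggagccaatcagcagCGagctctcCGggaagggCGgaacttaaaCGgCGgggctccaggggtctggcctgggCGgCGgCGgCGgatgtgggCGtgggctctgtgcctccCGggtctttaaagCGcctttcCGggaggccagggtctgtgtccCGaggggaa
Tet1: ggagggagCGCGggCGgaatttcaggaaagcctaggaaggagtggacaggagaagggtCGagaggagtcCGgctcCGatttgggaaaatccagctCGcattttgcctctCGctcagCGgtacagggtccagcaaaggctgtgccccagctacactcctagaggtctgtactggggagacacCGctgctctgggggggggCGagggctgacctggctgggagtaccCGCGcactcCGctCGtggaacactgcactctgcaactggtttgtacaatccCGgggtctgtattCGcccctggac
Tet2: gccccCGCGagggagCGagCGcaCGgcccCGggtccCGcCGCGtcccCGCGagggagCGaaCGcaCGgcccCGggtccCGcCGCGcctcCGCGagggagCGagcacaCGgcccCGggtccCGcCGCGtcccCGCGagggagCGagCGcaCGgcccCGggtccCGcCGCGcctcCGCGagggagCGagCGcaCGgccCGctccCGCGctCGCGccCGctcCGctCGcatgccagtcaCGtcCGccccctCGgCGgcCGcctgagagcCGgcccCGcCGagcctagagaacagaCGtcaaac

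The Dnmt1 and Uhrf1 windows hold 33 CpG sites each, the Tet1 window 17 and the Tet2 window 57, against a median of 7 over 32851 promoter windows of 300 bases. That median takes every window and not the richest of each gene. The other Dnmt1 windows hold 12 and 2 CpG sites, and the other Uhrf1 window 12. The Tet2 window had more CpG sites than 99.8% of those windows. The windows of Tet3 and Tdg hold 22 and 26. A search on both strands for the letters TTTCCCGC, TTTGGCGC, TTTCGCGC and TTTGCCGC, which are forms of the site bound by E2F factors of the G1 to S transition, found TTTGGCGC and TTTCGCGC in the Dnmt1 window and TTTCGCGC in the Uhrf1 window. None of the 4 was found in the other 7 windows of the members, and 2.26% of all windows held at least 1. These matches describe letters in a window, and binding was not measured.

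Dnmt1 (chromosome 9, 20907209 to 20959888, minus strand, GRCm38) had a lower median in D1 and in D2 than in D0. In D0 its level ran from 0 to 851 CPM with a median of 146, in D1 from 5.59 to 246 with a median of 61.5, and in D2 from 0 to 1487 with a median of 15.6. The ranges of the 3 labels overlapped, but D2 was spread over both extremes, with 32 of 93 cells without a read and 3 cells above 1000 CPM. The means were 172 ± 134 CPM in D0 (SD over cells, n = 90), 72.2 ± 51.5 in D1 (n = 50) and 141 ± 290 in D2 (n = 93). The mean was thus 2.38-fold lower in D1 than in D0, a log2 ratio of -1.25 with a 95% interval of -1.28 to -1.22 that covers counting error only, and of -0.21 when no filter on cells was applied. Between D2 and D0 the ratio of means was -0.29 on the log2 scale, whereas the ratio of medians was -3.22.

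Uhrf1 (chromosome 17, 56303321 to 56323486, plus strand) was lower than in D0 in both later labels, by means and by medians. In D0 it ran from 0.68 to 1763 CPM with a median of 901, and 88 of 90 cells were above 100 CPM. In D1 it ran from 0 to 895 CPM with a median of 316, and in D2 from 0 to 3379 CPM with a median of 76.2. No D1 cell exceeded 1000 CPM, against 35 of 90 D0 cells, although the ranges overlapped. The means were 913 ± 392 CPM in D0, 333 ± 212 in D1 and 273 ± 517 in D2, that is 2.74-fold and 3.34-fold below D0. The log2 ratios were -1.45 (-1.47 to -1.44) in D1 and -1.74 (-1.76 to -1.73) in D2. D2 and D1 had similar means, with a log2 ratio of -0.29 that became 0.21 when no filter on cells was applied. A near-identical copy of Uhrf1, Gm5648, is 98.3% identical over 1590 bases and took a mean of at most 0.96 CPM in any label.

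Tet1 (chromosome 10, 62804570 to 62908996, minus strand) differed little between D0 and D1, with a mean 1.25-fold lower in D1. It ran from 0 to 1286 CPM in D0 with a median of 612, from 117 to 973 in D1 with a median of 434, and from 0 to 5611 in D2 with a median of 350. Every D1 cell had reads for Tet1. The means were 558 ± 269, 445 ± 206 and 919 ± 1204 CPM, with a log2 ratio of -0.33 (-0.34 to -0.31) for D1 over D0. For D2 over D0 the means gave 0.72 and the medians -0.81, so the direction turned with the summary. In D2, 30 of 93 cells were above 1000 CPM, against 5 of 90 in D0 and 0 of 50 in D1.

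Tet2 (chromosome 3, 133463679 to 133545139, minus strand) had the largest ratio between D0 and D1 among the members, by means and by medians where these are above 0. In CPM the difference of Uhrf1 was larger. It ran from 0 to 756 CPM in D0 with a median of 272, from 0 to 280 in D1 with a median of 31.04, and from 0 to 7019 in D2 with a median of 17.2. The highest D1 cell thus lay close to the D0 median, while D2 held both more cells without a read, 27 of 93, and 13 cells above 1000 CPM. The means were 286 ± 167, 65.99 ± 80.4 and 427 ± 953 CPM. In D1 the mean was 4.34-fold lower than in D0, a log2 ratio of -2.12 (-2.15 to -2.08). For D2 over D0 the ratio of means was 0.57, that of medians -3.98, and that of means over cells with more than 5000 detected genes -0.12. The 2 D1 cells without an Hprt read had 168 and 267 CPM of Tet2, against a mean of 59.7 CPM in the 48 D1 cells with one, and without those 2 cells the D1 level lay further from D0. Tet2 shares 43 exonic bases with the antisense gene Gm42567, which had 31 reads in all wells together, and whether strand was used in counting is not given in the sources used here.

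Tet3 (chromosome 6, 83362373 to 83459084, minus strand) was the rarest member. Its median was 0 in every label, with the highest cell at 121, 55.2 and 74.7 CPM from D0 to D2. A read was present in 29 of 90 D0 cells and 18 of 50 D1 cells, but in only 1 of 93 D2 cells, where all 94 reads of the label lay. The means were 7.28 ± 19.1, 4.196 ± 10.9 and 0.80 ± 7.75 CPM. Any ratio for D2 rests on that single cell, and without it Tet3 had no read in D2.

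Tdg (chromosome 10, 82629828 to 82650799, plus strand) ran from 0 to 137 CPM in D0 with a median of 10.3, from 0 to 85.9 in D1 with a median of 15.5, and from 0 to 465 in D2 with a median of 12.6. The medians lay close together, and the labels overlapped over most of their range. The means were 15.8 ± 19.3, 18.3 ± 16.6 and 52.9 ± 96.1 CPM, so the mean in D2 was 3.35-fold that in D0, a log2 ratio of 1.75 (1.67 to 1.82), with 14 of 93 D2 cells above 100 CPM and 1 of 90 D0 cells. Tdg is uncertain as a single gene. The processed pseudogene Gm9855 on the same chromosome is 99.2% identical to a Tdg transcript over its whole 1194 bases, and it had nearly as many reads, with means of 15.4, 20.7 and 42.1 CPM. In single cells the level of Gm9855 followed that of Tdg with a Spearman rho of 0.84 in D0, 0.75 in D1 and 0.96 in D2, the highest mean over labels that any of 3644 genes had with any member. Summed over both, the log2 ratio of means for D2 over D0 was 1.61 and that of medians -0.13. Other copies, Tdg-ps and Gm5597, had a mean of at most 0.47 CPM.

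**Figure D1:**
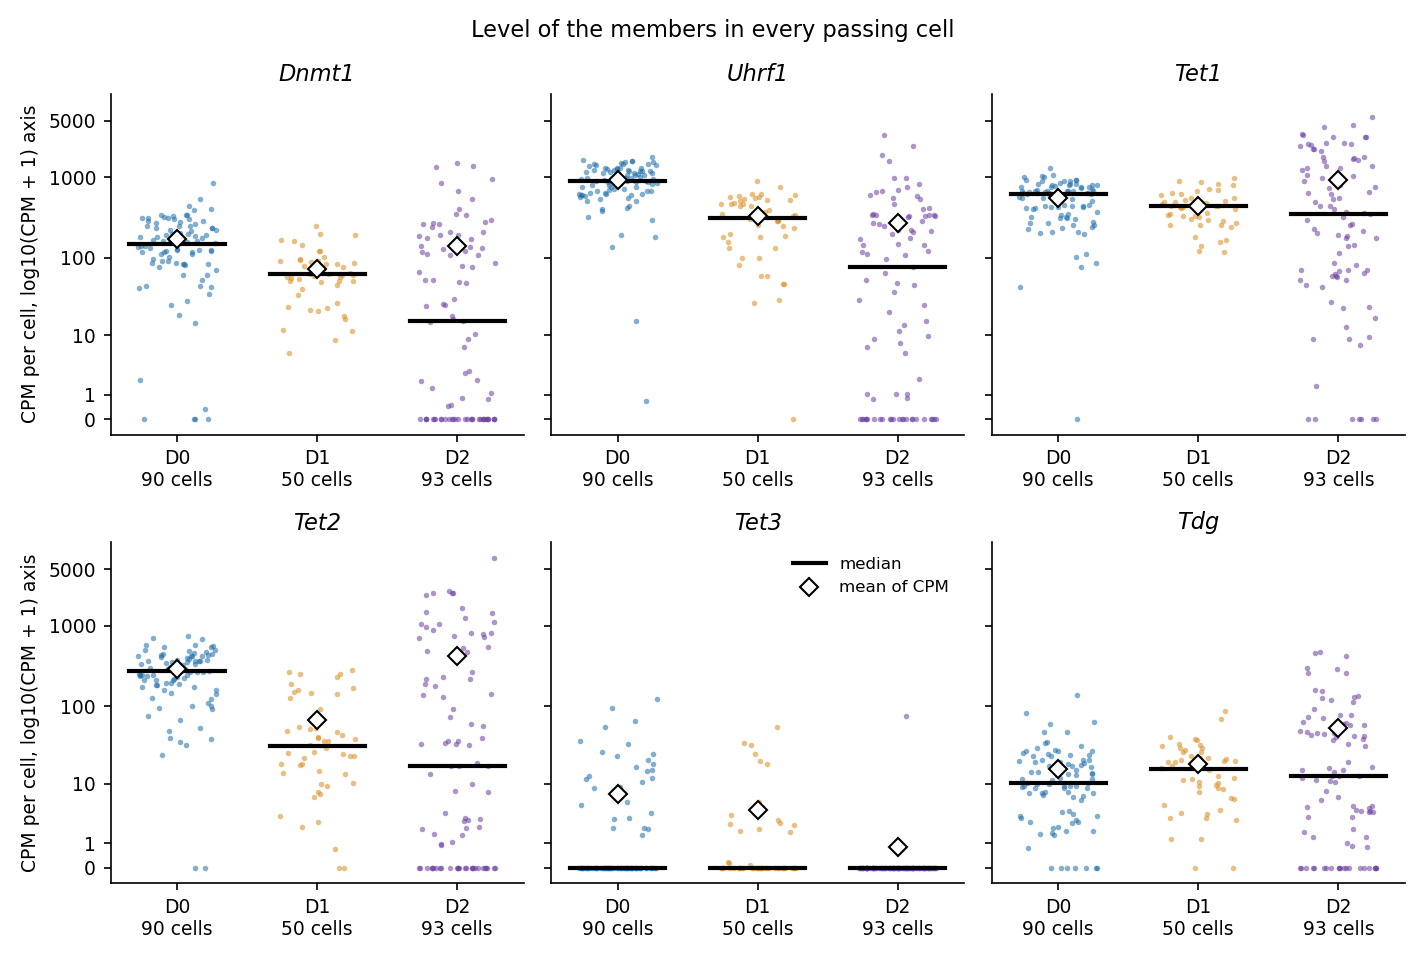
Level (CPM, vertical axis, log10 of CPM + 1) of the 6 members in every passing cell of D0, D1 and D2, 1 point per cell, with the median as a bar and the mean as a diamond. Dnmt1, Uhrf1 and Tet2 lie lower in D1 than in D0, and in D2 mean and median separate for every member with a median above 0, as for Tet2 with a mean of 427 and a median of 17.2 CPM.

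Set against all genes, a difference of at least 2-fold on the scale of log2(mean CPM + 10) was counted over those genes that had reads in 50% or more of the cells of at least 1 label compared. Tet3 did not pass this limit, and the other 5 members passed it in each of the 3 labels. In D1 over D0, 3 of the 5 were lower, Dnmt1, Uhrf1 and Tet2, where 16.7% of 10494 genes were lower, and 0 were higher, where 7.38% were. Dnmt1 fell short of 2-fold in this comparison with TMM factors and without a filter on cells, which left 2 members, Uhrf1 and Tet2, beside 12.5% and 27.9% of all genes. In D2 over D0, 1 of 5 was lower, Uhrf1, where 20.5% of 8822 genes were, and 1 was higher, Tdg, where 6.86% were. In D2 over D1, 3 of 5 were higher, Tet1, Tet2 and Tdg, where 9.62% of 9855 genes were, and 0 were lower, where 9.52% were. Tet1 fell short of 2-fold here without a filter on cells, with totals that left out the 50 most abundant genes and in plate columns 1 to 6, which left 2 members, Tet2 and Tdg, beside 16.6%, 9.90% and 10.01% of all genes. By medians over cells all 3 were lower in D2 than in D1, with log2 ratios of -0.31 for Tet1, -0.85 for Tet2 and -0.30 for Tdg, and means of log-normalized values gave -0.015 for Tet1. The median difference of the 5 was -1.15, 0.56 and 1.03 in these 3 comparisons, beside -0.13, -0.16 and -0.03 over all genes tested. The comparisons share labels, so they are not independent of each other. TMM factors shifted all genes upward by 0.21 (D1 over D0) and 0.28 (D2 over D0) on the log2 scale, and brought Dnmt1 in D2 over D0 to -0.015.

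The share of cells with at least 1 read was compared at 200000 reads per cell. Dnmt1 was detected in 94.4% of D0 cells (95% Clopper-Pearson interval 87.5 to 98.2), in 100% of D1 cells (92.9 to 100) and in 56.99% of D2 cells (46.3 to 67.2). For Uhrf1 the shares were 98.9%, 98% and 66.7%, and for Tet2 97.8%, 88% and 59.1%, with D2 intervals of 56.1 to 76.1 and 48.5 to 69.2. Tet1 was detected in 98.9%, 100% and 91.4% of cells, level with Uhrf1 in D0 and with Dnmt1 in D1, and had the highest share of the members in D2. Tet3 was detected in 23.3%, 18% and 1.08% of cells, and its D2 interval of 0.027 to 5.85 lay below that of both other labels. For Tdg the shares were 73.3%, 66% and 66.7%, and the D1 value is a low draw, since the share expected over all possible thinnings was 81.7%. Lower detection in D2 was not particular to these genes: 89.8% of the 8822 genes tested against D0 had a lower share in D2, with a median difference of -37.6 percentage points. Fewer molecules per cell and fewer captured molecules cannot be told apart here.

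**Figure D2:**
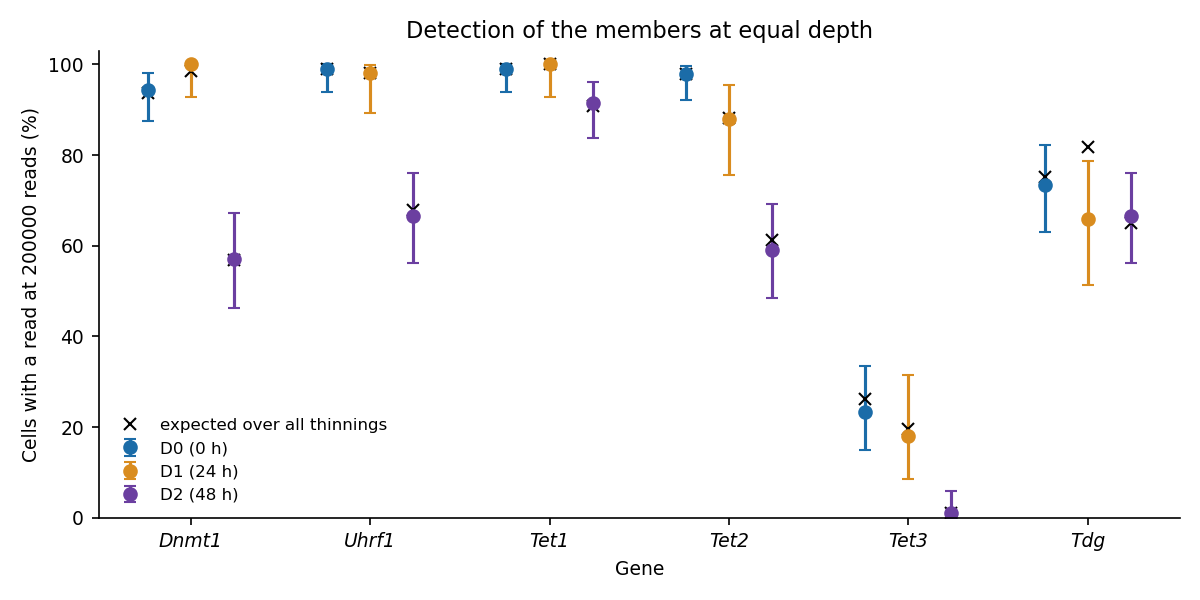
Percentage of cells with at least 1 read of each member (vertical axis) after thinning every cell to 200000 reads, for D0, D1 and D2, with exact 95% Clopper-Pearson intervals as bars and the share expected over all thinnings as a cross. Dnmt1, Uhrf1, Tet1, Tet2 and Tet3 have their lowest share in D2, at 56.99%, 66.7%, 91.4%, 59.1% and 1.08%.

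Joint detection in single cells was counted at the same depth. Both maintenance genes were detected in 85 of 90 D0 cells, in 49 of 50 D1 cells and in 33 of 93 D2 cells. The remaining D2 cells held Uhrf1 without Dnmt1 in 29 cases, Dnmt1 without Uhrf1 in 20 and neither in 11. Separate detection of the pair, from the product of both shares, would give 84.1, 49 and 35.3 cells. Tet1 and Tet2 were found together in 88 of 90, 44 of 50 and 51 of 93 cells, where separate detection would give 87.02, 44 and 50.3. In D1, and nearly so in D0, the joint counts are fixed by shares at or near 100%, and the D2 counts lay within 3 cells of separate detection. Of the other D2 cells, 34 had Tet1 alone of this pair, 4 had Tet2 alone and 4 had neither. On average 4.87 of the 6 members were detected in a D0 cell, 4.70 in a D1 cell and 3.42 in a D2 cell.

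The D2 cells stood apart by their cell-to-cell spread. The 10% of cells with the highest level held 25.6% of all Dnmt1 CPM in D0, 26.5% in D1 and 63.7% in D2. For Uhrf1 these shares were 17.1%, 21.01% and 55.9%, for Tet1 18.1%, 19.5% and 41.9%, and for Tet2 21.1%, 38.7% and 64.5%. Tet1 was thus the most evenly distributed of the 4 in D2. In D2, 50% of the CPM came from 6 of 93 cells for Dnmt1, 7 for Tet2, 8 for Uhrf1, 8 for Tdg and 13 for Tet1, whereas in D0 it took 23 to 31 of 90 cells for Dnmt1, Uhrf1, Tet1 and Tet2, and 16 for Tdg. In D1 it took 8 of 50 cells for Tet2, 11 for Tdg, 13 for Dnmt1, 14 for Uhrf1 and 17 for Tet1. Medians were accordingly lower in D2 than means for all 5 members with a median above 0. Over all genes tested, the median difference of log2(median CPM + 10) between D2 and D0 was -1.16, so a low D2 median was common among genes as well. Medians in D1 and D0 were on a common level over all genes, with a median difference of 0.0036.

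**Figure D3:**
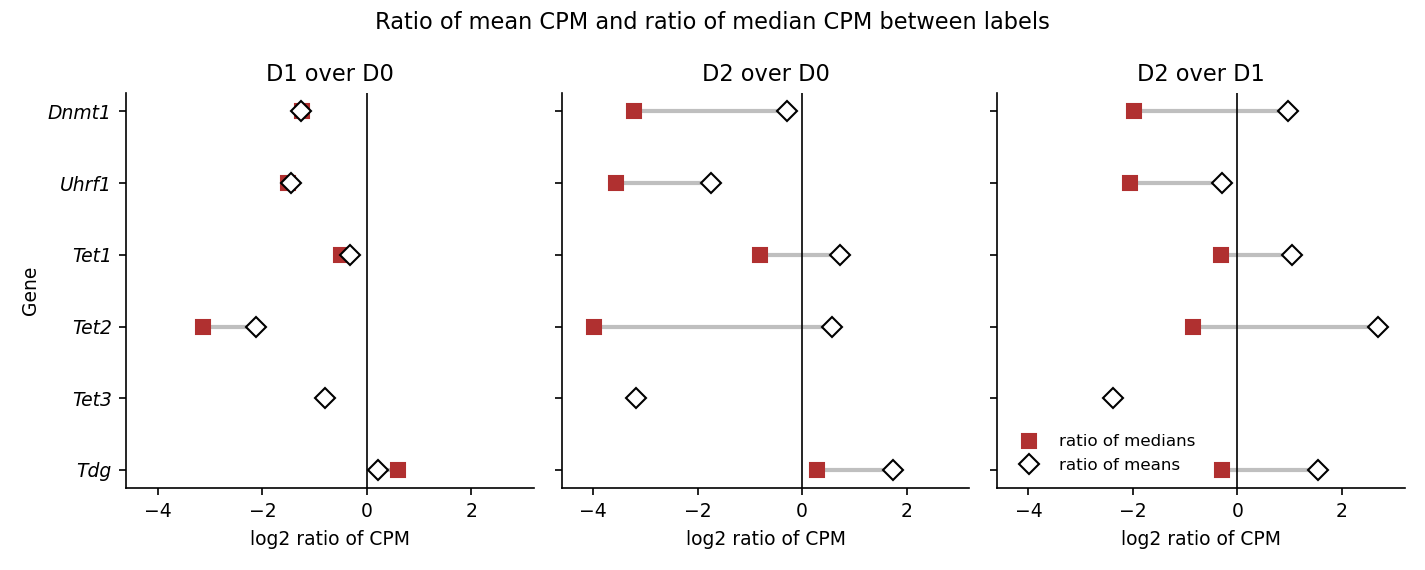
Ratio of mean CPM (open diamonds) and ratio of median CPM (red squares) between labels on a log2 axis for each member; Tet3 has no ratio of medians because its medians are 0. In D1 over D0 both summaries have the same sign for every member shown with both, whereas in D2 over D0 they have opposite signs for Tet1 (0.72 and -0.81) and Tet2 (0.57 and -3.98), and in D2 over D1 for Dnmt1 (0.96 and -1.98), Tet1 (1.05 and -0.31), Tet2 (2.69 and -0.85) and Tdg (1.53 and -0.30).

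Per kilobase of exon, on which levels of different genes can be compared, Uhrf1 was the most abundant member in every label, with a mean of 214 CPM per kb in D0, 78.2 in D1 and 64.1 in D2. Tet1 followed with 36.1, 28.8 and 59.5 CPM per kb, which in D2 lay well within the spread of Uhrf1 over cells. Dnmt1 was next in D0 and D1 with 23.3 and 9.79, and Tet2 was close to it in D0 with 16.98. In D2 Tet2 stood at 25.3 and Dnmt1 at 19.1 CPM per kb, and their spread over cells was larger than this gap. Tdg had 2.94, 3.40 and 9.85, and Tet3 at most 0.44 CPM per kb. By medians the order in D2 was different, with Tet1 at 22.6 and Uhrf1 at 17.9 CPM per kb, and Tdg, Dnmt1 and Tet2 between 1.02 and 2.35.

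Partners of the maintenance pair were taken from a list. Of 12 listed genes of the maintenance machinery, 12 were tested in D1 over D0, 0 were higher and 2 were lower, with a median difference of 0.10, and the 2 of 12 are at the share of 16.7% of all genes. The 2 were Usp7 and Dppa3. Dppa3 had reads in 83.3% of D0 and 40% of D1 cells, so it passed the limit of 50% only through D0. Usp7, a deubiquitinase that stabilises Dnmt1, had means of 564, 248 and 321 CPM in D0, D1 and D2. Dppa3, which keeps Uhrf1 from chromatin, had 91.5, 35.8 and 69.5 CPM. The chromatin remodeller Hells stood at 639, 735 and 322 CPM, the sliding clamp Pcna at 330, 417 and 392, and the replication ligase Lig1 at 158, 189 and 118. Uhrf2, the close relative of Uhrf1, had 22.9, 7.77 and 44.96 CPM, with reads in 43 of 90, 27 of 50 and 7 of 93 cells. In D2 over D0, 1 of the 11 tested partners was higher and 0 were lower, where 6.86% and 20.5% of all genes were.

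Among 12 listed TET partners and suppliers of cofactor, 10 were tested in D1 over D0, of which 2 were higher and 4 lower, where 7.38% and 16.7% of all genes were, and 1 was higher and 4 lower in D2 over D0, where 6.86% and 20.5% were. Idh1, the cytosolic isocitrate dehydrogenase that makes the TET cosubstrate oxoglutarate, had a mean of 854, 127 and 130 CPM in D0, D1 and D2. Its mitochondrial relative Idh2 had 190, 109 and 138 CPM. Ogt, a glycosyltransferase that binds TET proteins, had 453, 98.7 and 146 CPM, and Prdm14, a naive-state regulator that recruits TET proteins, had 42.7, 2.58 and 8.40 CPM. Cxxc5, which binds CpG-rich DNA and TET2, had 20.4, 8.79 and 2.74 CPM, and its relative Cxxc4 had at most 0.06 CPM in any label. Idh1, Ogt, Prdm14 and Cxxc5 thus had their highest mean in D0. The 2 that were higher in D1 were Hmces, a binder of modified cytosine and abasic sites with 102, 237 and 269 CPM, and the RNA-binding protein gene Lin28a with 22.3, 70.2 and 37.2 CPM.

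Of 14 genes of the repair steps after oxidation or deamination, 11 were tested in D1 over D0, with 2 higher and 0 lower, beside the 7.38% and 16.7% of all genes, and 0 of 9 past 2-fold in either direction in D2 over D0, where 6.86% of all genes were higher and 20.5% lower. Apex1, the endonuclease that cuts the abasic site left by Tdg, had means of 19.9, 90.5 and 31.4 CPM. Parp1, a sensor of strand breaks, had 345, 282 and 364 CPM, and its scaffold partner Xrcc1 had 107, 101 and 93.4. The glycosylases Smug1, which removes uracil, and Mbd4, which like Tdg acts on mismatched thymine, had 35.8, 16.5 and 18.2 CPM and 43.5, 21.02 and 44.9 CPM.

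Of 4 listed de novo methylation genes, 4 were tested in D1 over D0. Of these, 3 were at least 2-fold higher in D1 and 0 lower, beside 7.38% and 16.7% of all genes. Dnmt3a, Dnmt3l and Dnmt3c passed the limit on the share of cells only through D1. They had reads in 27.8%, 38.9% and 2.22% of D0 cells, and in 96%, 100% and 60% of D1 cells. Dnmt3b alone passed in both labels, so the count rests in part on genes that their higher share in D1 let in. In D2 over D0, 3 were tested and 3 were higher, beside 6.86% of all genes. Here too Dnmt3a and Dnmt3l passed only through the later label, with reads in 63.4% and 95.7% of D2 cells, and Dnmt3c did not pass. Dnmt3a had means of 5.68, 252 and 86.8 CPM in D0, D1 and D2, Dnmt3b 114, 367 and 464 CPM, and the cofactor Dnmt3l 25.4, 748 and 535 CPM. Dnmt3l shares 67 exonic bases with Aire on the opposite strand, which had 86972 reads in all wells together, so its values are uncertain where strand was not used in counting. The fourth gene, Dnmt3c, had 0.15, 0.56 and 0.073 CPM. Per kilobase, Dnmt3b at 22.4 CPM per kb was level with Dnmt1 at 23.3 in D0, and at 71.95 was above Dnmt1 at 9.79 in D1.

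The balance of both processes in a cell was taken as the mean log2(CPM + 10) of Dnmt1 and Uhrf1 minus that of Tet1, Tet2, Tet3 and Tdg. It ran from -0.82 to 3.81 in D0 with a mean of 2.08 ± 0.87, from -2.25 to 3.27 in D1 with a mean of 1.42 ± 0.96, and from -4.12 to 4.86 in D2 with a mean of 0.21 ± 1.99. Cells above 0 numbered 86 of 90, 47 of 50 and 52 of 93. The position of 0 follows from the formula, which averages 2 genes against 4 without regard to length, with Tet3 at or near the pseudocount in most cells, so a value above 0 does not say that the maintenance genes were the more abundant. The difference of means was -0.66 for D1 and -1.87 for D2 against D0, and -1.21 between D2 and D1, where the SD over D2 cells was larger. Without Tdg, the D1 difference from D0 was -0.39, and without a filter on cells it was -0.996, with -0.73 between D2 and D1. In D1 the maintenance part was 1.28 lower than in D0, at 7.04 against 8.32, and the demethylation part 0.62 lower, at 5.62 against 6.24. These sizes cannot be set against each other, since Tet3 and Tdg lay near the pseudocount and could hardly fall. By gene, mean log2(CPM + 10) in D0 and D1 was 8.89 and 8.67 for Tet1 and 7.86 and 5.55 for Tet2. For Tet3 it was 3.76 and 3.62, and for Tdg 4.45 and 4.62. The size of the balance differences therefore depends on counting Tet3 and Tdg. D2 had the same demethylation part as D1 at 5.62, and a lower maintenance part at 5.83. With Dnmt3a, Dnmt3b and Dnmt3l counted among the methylating genes, the difference from D0 was 2.14 in D1 and 0.87 in D2, the opposite direction.

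**Figure D4:**
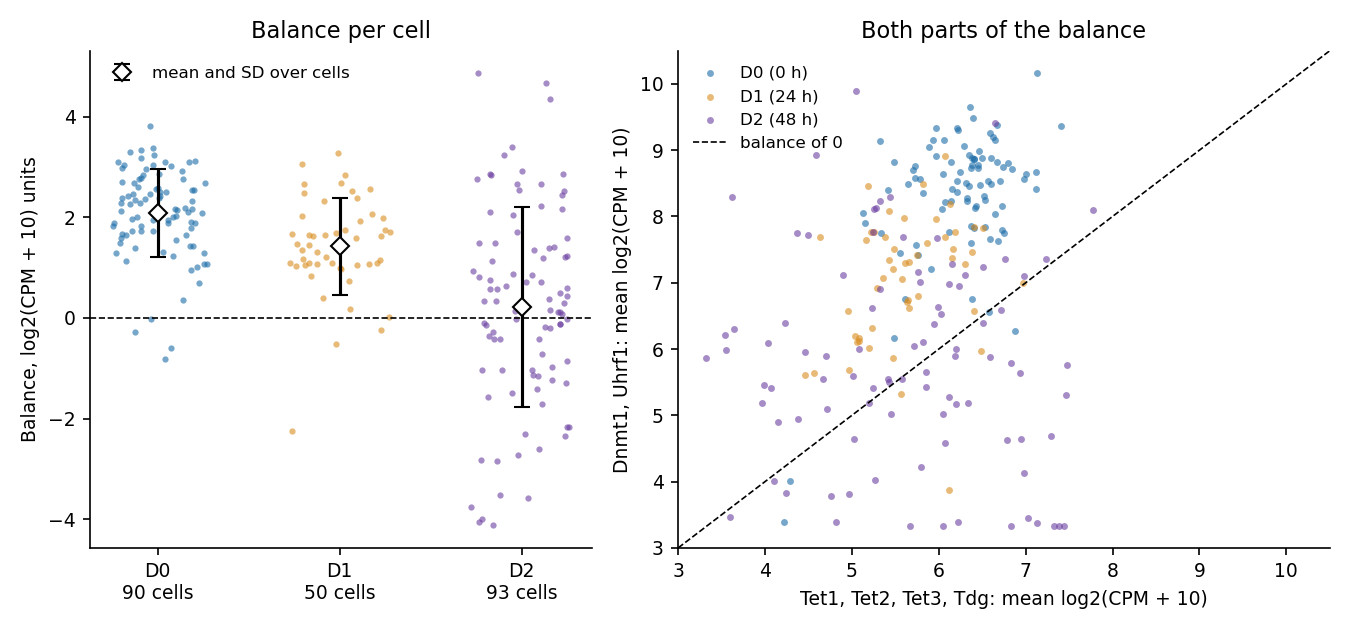
Left, balance of maintenance and demethylation genes in every cell of D0, D1 and D2 (vertical axis, log2(CPM + 10) units), with mean and SD over cells. Right, mean log2(CPM + 10) of Dnmt1 and Uhrf1 (vertical) against that of Tet1, Tet2, Tet3 and Tdg (horizontal), 1 point per cell, with the line of equal levels dashed. D2 cells lie on both sides of the line, 52 of 93 above it, and D0 cells above it in 86 of 90 cases.

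Within a label, most pairs of members had a low rank correlation. Over the 15 pairs, Spearman rho on log2(CPM + 10) lay between -0.10 and 0.30 in D0, -0.10 and 0.41 in D1, and -0.20 and 0.15 in D2. Dnmt1 and Uhrf1 had 0.05 over 90 D0 cells, 0.41 over 50 D1 cells and -0.18 over 93 D2 cells, and Tet1 and Tet2 had 0.20, 0.40 and 0.04. Cells without a read also lower rho, with 32, 24 and 27 of 93 D2 cells lacking Dnmt1, Uhrf1 and Tet2. The D2 pairs with Tet3 rest on 1 cell with a read. Separate variation and missed reads cannot be told apart here. Points of a label share the scaling by total reads, a plate and, as far as the labels show, a culture, so these values are descriptions.

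Uhrf1 had the highest correlation of the members with S phase genes in D0 and D1. Its rho with the summed CPM of 18 S phase genes, mostly replication licensing factors and nucleotide synthesis enzymes, was 0.49, 0.87 and 0.06 in D0, D1 and D2, and 0.49, 0.85 and 0.08 after thinning. For Dnmt1 the same rho was 0.21, 0.41 and 0.14. The S phase genes themselves were not low in D2, with a median sum of 4716, 4125 and 5337 CPM in D0, D1 and D2. Low rho in D2 was not particular to this relation, since rho between members was also at most 0.15 there. Detection at equal depth was lower in D2, with a median of 3945 genes against 8035 in D1, and its part was not tested. The 24 D2 cells without a Uhrf1 read had S phase sums from 1264 to 11519.5 CPM with a median of 5397, and the 69 with a read had a median of 5337. Uhrf1 in D0 also had a rho of -0.43 with the mitochondrial share of reads, which was -0.28 in D1 and -0.01 in D2.

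**Figure D5:**
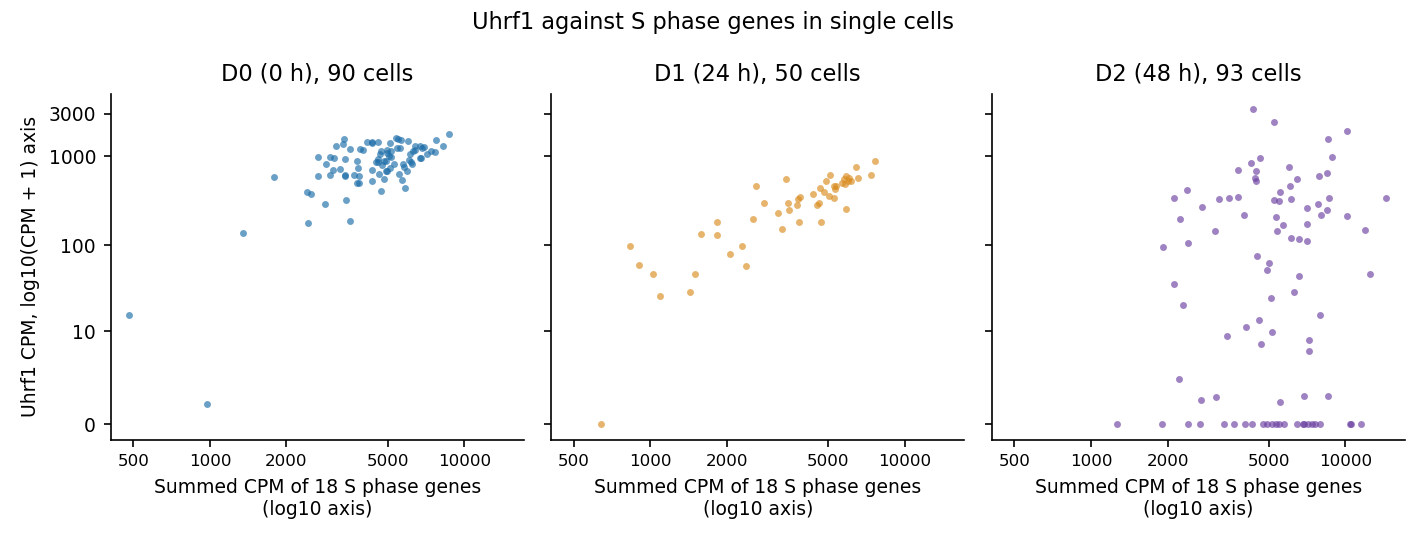
Uhrf1 level (vertical axis, log10 of CPM + 1) against the summed CPM of 18 S phase genes (horizontal, log10 axis) in D0, D1 and D2, 1 point per cell. The points of D1 follow each other closely, with a rho of 0.87, those of D0 less so with 0.49, and those of D2 do not, with 0.06 and a row of 24 cells at 0. Fewer genes were detected per D2 cell at equal depth, and the part of this was not tested.

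The genes most like each member were ranked by the mean rho over the 3 labels over the 3644 genes detected in 50% or more of the cells of each label. For Uhrf1 they were Mcm3, a subunit of the replicative helicase, with a mean rho of 0.46, the mitochondrial carrier Slc25a39 with 0.43 and the histone chaperone subunit Ssrp1 with 0.42. Dnmt1 was nearest to Fbxo5, an inhibitor of the anaphase-promoting complex, with 0.33, to the replication protein Rpa1 with 0.31 and to the chromatin assembly subunit Chaf1b with 0.29. Tet2 was nearest to the naive pluripotency factor Esrrb with 0.33, made up of 0.05 in D0, 0.56 in D1 and 0.40 in D2, then to Rrm1 with 0.31 and Nacc1 with 0.30. The highest values for Tet1 were Ptpa and Cops7a with 0.27 each, and for Tet3 Mcmbp with 0.26, Mlx with 0.23 and Dppa2 with 0.22. The D2 part of the Tet3 values rests on 1 of 93 cells with a read, so their order is uncertain. After Gm9855, Tdg was nearest to Abcf2 with 0.34 and Phb2 with 0.33. Values of this size were the highest of 3644 and are given for their order only.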

How the data were processed

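The authors made RNA libraries by scNMT-seq and deposited raw counts, as whole numbers of reads on each gene in 288 wells. HISAT2 and GRCm38 are named in the submitters' processing notes, while the counting tool and the use of strand are not given in the sources used here. The labels name a filtered, normalized table, but the values are raw counts, with wells that fail the filter included. Between 79.9% and 84.0% of counts from 10 to 199 were even. Where both mates of a pair were counted, which was not tested, the counting intervals are too narrow.

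Cells with over 200000 reads, over 2000 genes and a mitochondrial fraction under 0.15 were kept, which left out 6 D0, 46 D1 and 3 D2 wells. Counts were divided by the cell's total (CPM), and averaged with equal weight per cell. Cells were thinned to 200000 reads with seed 1. The 95% intervals, from Poisson errors of the means for ratios and exact Clopper-Pearson for shares, cover counting error only. Lengths, positions and transcript copies (at least 200 bases at 90% identity, blastn) came from GENCODE vM21. Tools were Python 3.11.15, numpy 2.4.6, pandas 2.3.3, scipy 1.17.1 and edgeR 4.0.16 (TMM factors only) in R 4.3.3. Members, lists and the rule for named genes (the members, listed partners, and the 3 genes most like each member) were chosen with earlier results of these data known. Genes without an established symbol were not named, except Gm9855, Gm5648, Gm5597 and Gm42567, which were named after their values were seen.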

Additional observations from a re-analysis of the deposited data

Results flagged for a closer look

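Reads of the members were also present in wells that failed the filter on cells, which enter no value of the comparisons other than those given as without a filter on cells. The 6 failed D0 wells held 13 reads of Dnmt1, 93 of Uhrf1, 14 of Tet1 and 17 of Tet2 among 114562 reads on genes. The 46 failed D1 wells held 33 reads of Dnmt1, 66 of Uhrf1, 134 of Tet1 and 8 of Tet2 among 357724 reads on genes. Each of these 8 values is above the 3 reads that a count of 0 allows. The 3 failed D2 wells had no read of any member among 1459044 reads.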

How the results depend on the processing

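No paired analysis was possible because, as far as the labels show, each label is 1 culture, and well positions do not link cells of different labels. Of 323 alternative values of the members' log2 ratios, 15 changed sign. With medians over cells the ratio was -1.98 for Dnmt1 in D2 over D1, -0.81 and -0.31 for Tet1 in D2 over D0 and D2 over D1, -3.98 and -0.85 for Tet2, and -0.30 for Tdg in D2 over D1. Means of log-normalized values gave -0.24 and -0.015 for Tet1 in D2 over D0 and D2 over D1 and -0.57 for Tet2 in D2 over D0. Without a filter on cells, Dnmt1 in D2 over D1 was -0.049, Uhrf1 in D2 over D1 0.21 and Tdg in D1 over D0 -0.64. In cells with more than 5000 detected genes, chosen after seeing the data and leaving 36 D2 cells, Tet2 in D2 over D0 was -0.12. Medians of Tdg and Gm9855 summed, also added later, gave -0.13 in D2 over D0 and -0.91 in D2 over D1. Uhrf1 was below D0 in D1 and in D2 under every alternative run, with log2 differences from -1.92 to -1.21 and from -3.56 to -1.40, as were Tet2 in D1 (-3.13 to -1.20, where -1.20 is a difference of means of log-normalized values and the next highest is a ratio of -1.91) and Dnmt1 in D1 (-1.33 to -0.21).

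Among the alternatives run, the balance changed sign only with the Dnmt3 genes added, to 2.14 in D1 minus D0 and 0.87 in D2 minus D0. It was then -1.27 in D2 minus D1. No alternative left out Tet3, alone or together with Tdg, so a balance without the genes near the pseudocount was not tested. For D1 minus D0 it was -0.996 without a filter on cells, -0.63 with over 300000 reads and over 3000 genes, -0.60 with TMM and -0.63 with median-of-ratios factors, -0.61 without D0 and D2 cells with an Hprt read, -0.62 without D1 cells lacking one, -0.58 with a pseudocount of 1, -0.80 from sums per kb, -0.39 without Tdg and -0.70 with Tdg and Gm9855 summed. For D2 minus D0 the same order gave -1.73 without a filter, -1.82 with TMM, -1.83 with median-of-ratios, -1.83 without Hprt cells, -2.39 with a pseudocount of 1, -2.26 per kb, -1.50 without Tdg and -1.84 with Gm9855, beside -1.91 without the 50 most abundant genes, -1.81 and -1.92 in plate columns 1 to 6 and 7 to 12, and -2.03 in cells with more than 5000 genes. For D2 minus D1 it was -0.73 without a filter, -1.25 with over 300000 reads, -1.27 without the 50 genes, -1.15 and -1.26 in the plate columns, -1.25 without D1 cells lacking Hprt, -1.36 with more than 5000 genes, -1.81 with a pseudocount of 1, -1.46 per kb, -1.10 without Tdg and -1.13 with Gm9855. Of 84 alternative counts of members past 2-fold, 1 was outside 1.5 times the reported count, with 2 members higher in D2 over D0 at 1.5-fold. The causes were not tested. Among 108 alternative shares of cells, 23 lay outside the counting interval. With 1 culture per time point, as far as the labels show, no setting gives an error between cultures.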
